A study of Mus musculus with 56 samples.

Results

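The comparison is between 2 subsets of OVA:Kb-specific CD8+ T cells (TFGS, T cells with fetal or graft specificity) from naive mice post-partum, PD1+CD73+ cells (N+P C5) and PD1- cells (N+P C1). Its members are the 12 libraries, out of 56 in the series, that the labels give to these 2 subsets, and they make 6 samples, C1 and C5 of each of 3 mice. The mice were C57BL/6 females, not sensitized beforehand, mated with 2W-OVA.BALB/c males, and per the paper only part of the offspring carried the 2W-OVA model antigen. All 6 samples therefore come from post-partum animals, and C1 is an internal comparator and not an unmated control. TFGS were taken from spleen and pooled lymph nodes in the first days after birth, stained with OVA:Kb tetramers and sorted by PD-1 and CD73. Each library was made with SmartSeq2, a full-length cDNA method, from 200 cells, with technical libraries A and B for every mouse and subset. C57BL/6 mice without mating or graft (Naive, 3 mice) are given beside them as a level. Mice of the same genotype that carried a 2W-OVA.BALB/c skin graft before the same mating (S+P, 6 mice) serve for 1 comparison of effects. The labels give no age.

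PD-1 is an inhibitory receptor that appears on T cells after antigen contact and remains where antigen persists, together with receptors such as LAG-3, TIGIT and CTLA-4. CD73, an enzyme on the cell surface, makes adenosine from AMP and, with the folate receptor FR4, marks CD4+ T cells that have become anergic, meaning alive but unresponsive to their antigen. Naive CD8+ T cells instead hold CCR7, which guides them into lymph nodes, and the transcription factors TCF1, LEF1 and SATB1. Semi-allogeneic pregnancy exposes maternal T cells to paternal antigens that the fetus carries, without rejection.

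The 12 libraries held 10547084 to 30794374 counts and 12775 to 15533 detected genes each, and with A and B summed per mouse and subset the total was 27028748 to 50176584. A single rRNA gene took 17.1% to 23.7% of the counts in 10 libraries and 0.446% to 0.612% in technical library B of mouse 3, in C1 and C5 alike. Mitochondrial genes took 7.75% and 10.6% in the C1 libraries of mouse 1, against 2.79% to 4.47% in the other 10. The samples carried CD8+ T cell transcripts: *Cd8b1* ran from 1326 to 1919 CPM (read counts brought to a common library size with TMM factors) over the 6 samples and *Cd3e* from 564 to 811, while *Cd4* had no count in any. Among markers of other cells, *Pf4*, *Klra8* and *Adgre1* were at 0 in all 6 samples. The B cell list, mostly *Ighm*, summed to 738 to 842 CPM in C1 and 375 to 1359 in C5, with the highest value in C5 of mouse 1. The gamma delta T cell list summed to 7.21 to 19.4 CPM in C1 and 11.1 to 84.8 in C5, and the myeloid list, mostly *Cst3*, to 65.2 to 84.0 and 92.0 to 92.8. NK and innate-like markers summed to 28.4 to 52.3 CPM in C1 and 41.3 to 66.6 in C5, CD4 T cell markers to 0 to 8.503 and 2.33 to 9.28, and platelet markers to 0.0904 to 1.84 and 0.315 to 7.55. Red cell genes summed to 0.862 to 1.87 CPM in C1 and 3.93 to 7.33 in C5 of mice 1 and 3, but to 150.7 in C5 of mouse 2. Their part in the results was not tested.

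The sort markers were looked at first. *Pdcd1* (PD-1; chromosome 1 from 93966027 to 93980312 of GRCm39) had 68.4, 6.27 and 11.9 CPM in C1 of mice 1, 2 and 3 and 415, 178 and 143 in C5. Every C5 sample was above every C1 sample, C1 of mouse 1 stood well above the other C1 samples, and Naive had a mean of 3.53. *Nt5e* (CD73; chromosome 9 from 88209089 to 88254146) had 66.6, 29.7 and 94.3 CPM in C1 and 119, 161 and 163 in C5, again without overlap, with a Naive mean of 46.6. Both genes belong to the gate and are a check of the labels. Their log2 fold changes were 3.66 (standard error, SE, 0.47, edgeR adjusted p = 0.127) and 1.34 (SE 0.38, edgeR adjusted p = 0.455), and neither passed. Adjusted p-values, named edgeR adjusted p throughout, come from the quasi-likelihood test of edgeR after the Benjamini-Hochberg procedure over all genes tested.

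**Figure D1:**
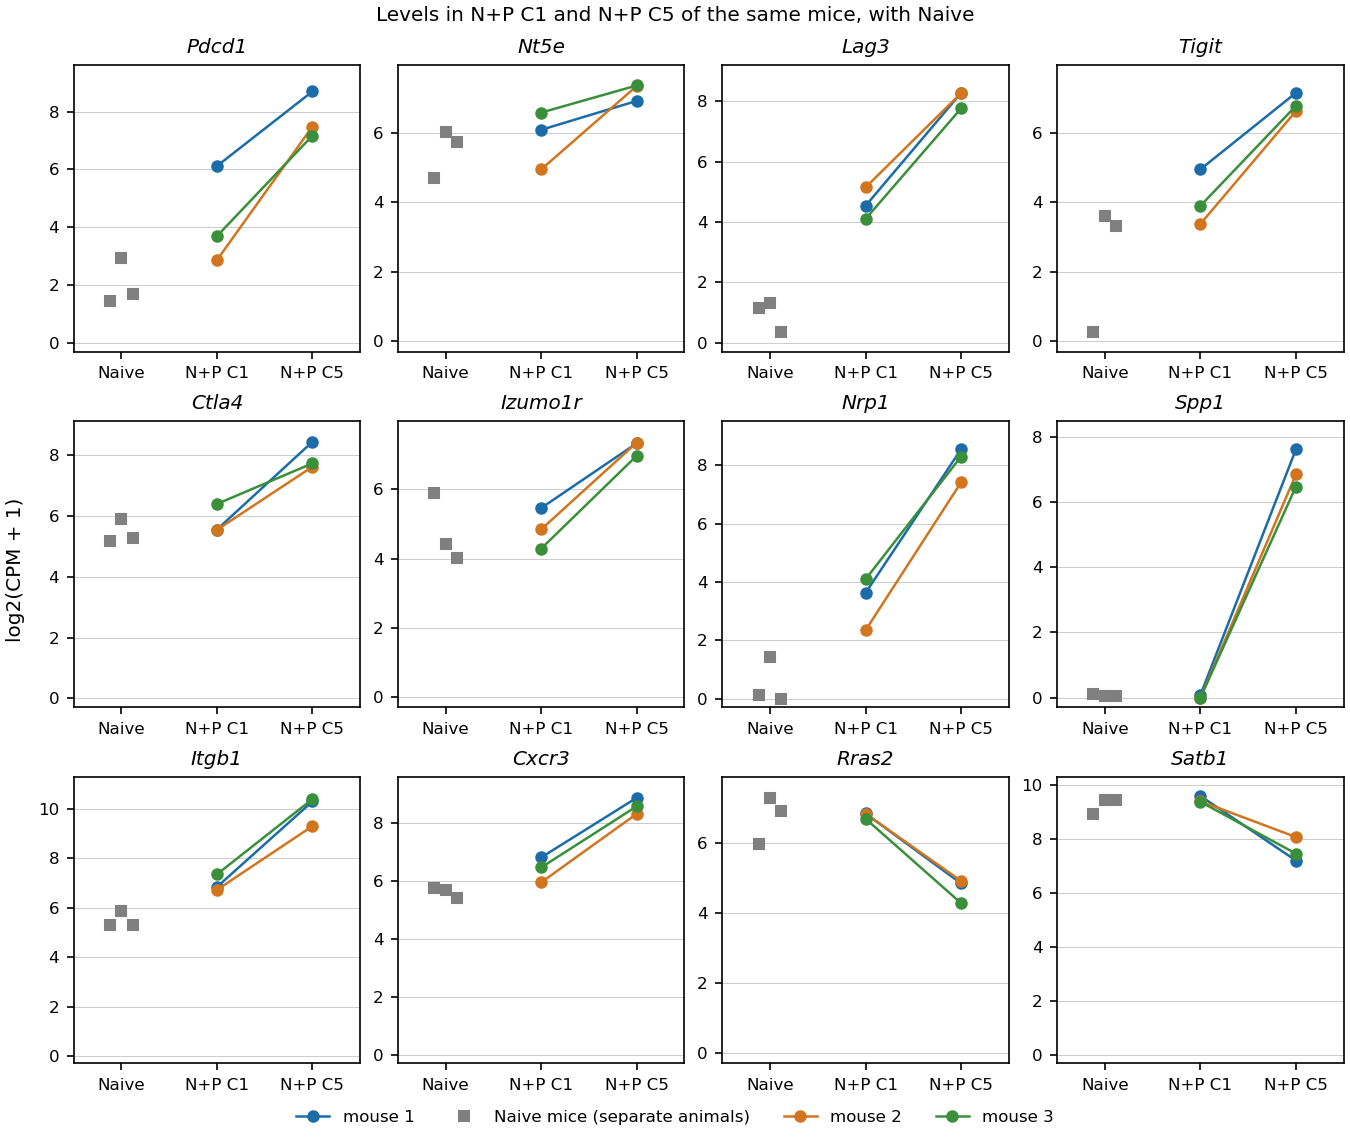
Levels of 12 genes as log2(CPM + 1), with lines joining N+P C1 and N+P C5 of the same mouse and grey squares for 3 Naive mice, which are separate animals. In all 3 mice the lines rise from C1 to C5 except for *Rras2* and *Satb1*, where they fall, and the C1 points of *Pdcd1* run from 6.27 to 68.4 CPM.

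Which transcripts set PD1+CD73+ apart from PD1- TFGS of the same animals was tested with the mouse as a block over 14914 genes. N+P C5 had 25 genes higher (0.168% of those tested) and 4 lower (0.0268%) where a call needed both an edgeR adjusted p under 0.1 and a log2 fold change beyond 0.9 in size. The higher genes included the inhibitory receptor genes *Lag3* and *Tigit*, the FR4 gene *Izumo1r*, the adhesion and migration genes *Itgb1*, *Cd44*, *Cxcr3* and *Nrp1*, and the secreted factor genes *Spp1*, *Ifng* and *Cxcl10*. The lower genes included *Satb1*, *Pdk1* and *Rras2*. At an unadjusted p under 0.05, 636 genes were higher (4.26%) and 522 lower (3.50%). The test had 2 residual degrees of freedom, and in edgeR fits without mouse 1, mouse 2 or mouse 3 the count past both thresholds was 0 each time. At an unadjusted p under 0.05 those fits had 427, 497 and 466 genes higher and 329, 324 and 348 lower. Without technical library B of mouse 3, a setting added after the data were seen, 2 genes remained, *Spp1* and *Nrp1*. With DESeq2 and the same block 682 genes were higher and 385 lower. In a bulk sample, more cells with a transcript and more transcript per cell cannot be told apart.

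**Figure D2:**
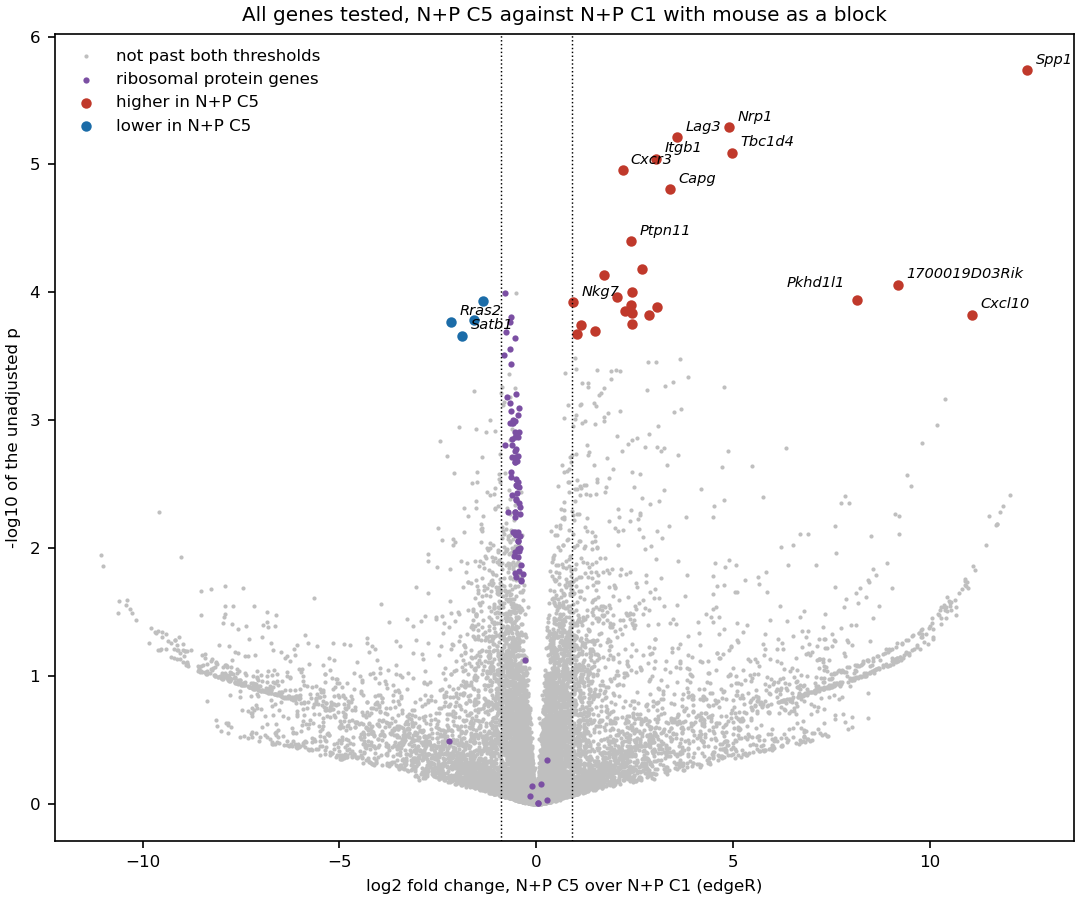
Each point is 1 of 14914 genes, with the log2 fold change of N+P C5 over N+P C1 on the x axis and -log10 of the unadjusted p on the y axis. The 25 higher genes (red) lie at the upper right, the 4 lower genes (blue) at the upper left, and the ribosomal protein genes (purple) form a narrow column just below 0.

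For each of these 29 genes the 3 C5 samples and the 3 C1 samples did not overlap. Over all genes tested, C5 lay wholly above C1 in 6.95% and wholly below in 6.67%. In the technical libraries taken separately, all 6 C5 libraries lay above all 6 C1 libraries for 25 of the 25 higher genes, against 1.21% of all genes tested, and below for 3 of the 4 lower ones, against 0.221%. *Pdk1* was the exception, and within each mouse its C5 libraries still lay below its C1 libraries. The 29 genes were chosen by the same counts, so these shares describe them and do not test them. In Naive TFGS, separate animals, the range of levels overlapped that of C1 for 16 of the 25 higher and 4 of the 4 lower genes, and that of C5 for 0 of the 29. The same shares over all genes tested were not computed. Because the 29 genes were chosen for a difference between C5 and C1, these counts only describe them.

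The sequence before the start of these genes was read for letters of sites that T cell activation factors can bind. RefSeq held promoter windows for 26 of the 29 genes (GRCm38.p6, another build than that of the counts), and the 250 bases before the start were searched on both strands. The motifs were GGAAA, the core of NFAT sites, TGANTCA for AP-1, for kappa B GGGA followed by NN, T, N and CC, and for interferon response elements GAAA, NN and GAAA again, of which GGAAA can overlap the kappa B and interferon letters. GGAAA was found before 15 of 23 higher genes and 58.8% of all genes with a window, TGANTCA before 1 and 7.82%, the kappa B letters before 2 and 3.80%, and the interferon letters before 3 and 3.46%. Windows on 1 chromosome, which holds none of the 29 genes, were left out of these shares. Shown are *Cxcl10*, the 1 gene of the 26 whose window held all 4 motifs, *Spp1*, where 1 of its windows held the interferon letters on the reverse strand, *Tigit*, with GGAAA alone, and *Rras2*, a lower gene with none. Capitals mark a motif match.
Cxcl10, chr5:92348890-92349139, minus strand: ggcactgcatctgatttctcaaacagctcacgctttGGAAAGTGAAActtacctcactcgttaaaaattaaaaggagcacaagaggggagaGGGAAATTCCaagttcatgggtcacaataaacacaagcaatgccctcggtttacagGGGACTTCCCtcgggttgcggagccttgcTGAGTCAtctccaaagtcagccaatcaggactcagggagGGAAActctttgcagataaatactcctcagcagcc
Spp1, chr5:104434861-104435110, plus strand: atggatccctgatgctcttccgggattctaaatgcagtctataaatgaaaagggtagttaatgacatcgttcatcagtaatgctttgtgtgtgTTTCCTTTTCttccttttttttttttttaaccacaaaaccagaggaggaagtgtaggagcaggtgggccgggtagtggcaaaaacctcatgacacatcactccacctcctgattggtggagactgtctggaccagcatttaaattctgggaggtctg
Tigit, chr16:43664185-43664434, minus strand: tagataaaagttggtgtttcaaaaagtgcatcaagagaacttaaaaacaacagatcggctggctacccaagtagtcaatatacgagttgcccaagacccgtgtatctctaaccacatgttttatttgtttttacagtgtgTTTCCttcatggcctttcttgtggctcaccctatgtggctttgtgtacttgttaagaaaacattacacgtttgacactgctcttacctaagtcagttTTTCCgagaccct
Rras2, chr7:114117782-114118031, minus strand: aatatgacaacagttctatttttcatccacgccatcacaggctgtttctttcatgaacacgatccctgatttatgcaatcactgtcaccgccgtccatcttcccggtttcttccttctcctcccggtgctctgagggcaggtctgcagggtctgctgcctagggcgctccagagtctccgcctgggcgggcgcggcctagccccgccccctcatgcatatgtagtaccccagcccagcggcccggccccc

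In *Cxcl10* the interferon letters began 213 bases before the start, the kappa B letters 159 and 103, the AP-1 letters 74 and GGAAA 214, 158 and 35 bases before it. In *Tigit* GGAAA lay on the reverse strand, 110 and 13 bases before the start. A match is a description of letters and shows no binding.

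Inhibitory receptor genes were the first group. *Lag3* (LAG-3, a receptor for MHC class II that restrains T cells; chromosome 6 from 124881320 to 124888765) had 22.2, 34.4 and 16.1 CPM in C1 of mice 1 to 3 and 311, 309 and 217 in C5. The groups were far apart, and Naive had a mean of 0.997, so that C1 itself lay above all 3 Naive mice. Its log2 fold change was 3.58 (SE 0.22, edgeR adjusted p = 0.0268). *Tigit* (a receptor for CD155; chromosome 16 from 43469100 to 43484509) had 30.05, 9.41 and 13.96 CPM in C1 and 142, 98.5 and 109.5 in C5, with C1 of mouse 1 the highest of the low group and no overlap. Its log2 fold change was 2.87 (SE 0.31, edgeR adjusted p = 0.0894). Of the 18 members tested of 19, these 2 rose (0.168% of all genes tested), none fell, and 7 had all C5 samples above all C1 samples (background 6.95%). Among these 7 is *Pdcd1*, the gate's own marker, which is also in the median. LAG-3, TIGIT and CTLA-4 were on the flow panel with which the paper first described C5. Their genes are therefore not independent of how the subset was defined. The median log2 fold change was 1.13, against -0.0155 over all genes tested.

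*Ctla4*, which competes with CD28 for its ligands, had 46.1, 45.9 and 83.6 CPM in C1 and 349, 197 and 213 in C5, and *Cd200*, a ligand of an inhibitory receptor on myeloid cells, had 1.18, 22.7 and 15.9 in C1 and 209, 239 and 244 in C5. Neither pair of groups overlapped, and neither gene passed the test (edgeR adjusted p = 0.156 and 0.220). *Havcr2* (TIM-3) had 10.6 CPM in C5 of mouse 1 and 0 to 1.36 in the other samples. *Cd96* and *Vsir* (VISTA) had log2 fold changes of -0.21 and -0.59 with groups that overlapped. Per kilobase of annotated exon, the mean level in C5 was 125.6 CPM for *Lag3*, 124.7 for *Pdcd1*, 111.2 for *Tigit*, 108.6 for *Ctla4* and 102.1 for *Cd96*, while in C1 *Cd96* had 120.1 and the other 4 had 10.9 to 25.1.

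Genes tied to anergy and hyporesponsiveness gave 2 calls. *Izumo1r* (FR4; chromosome 9 from 14797110 to 14815245) had 43.1, 27.7 and 18.6 CPM in C1 and 160.5, 163 and 125 in C5, each C5 sample being above each C1 sample and above the 3 Naive mice. Its log2 fold change was 2.40 (SE 0.25, edgeR adjusted p = 0.0894). *Nrp1* (neuropilin-1, a co-receptor for semaphorins and VEGF; chromosome 8 from 129085085 to 129231082) had 11.3, 4.08 and 16.1 CPM in C1 and 374, 170 and 314 in C5. Naive had a mean of 0.591, below every C1 sample, and the log2 fold change was 4.90 (SE 0.29, edgeR adjusted p = 0.0268). Of 20 members, 20 were tested, 2 rose (0.168% of all genes tested) and none fell. The median log2 fold change was 0.25, with the gate marker *Nt5e* included. FR4 was also on the flow panel with which the paper first described C5, so *Izumo1r* is not independent of that definition.

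Other members of this list did not pass. The E3 ligase gene *Cblb* had 159.8, 165 and 137 CPM in C1 and 271, 184 and 137 in C5, and the diacylglycerol kinase gene *Dgka* had 938, 960 and 911 in C1 and 715, 719 and 687 in C5 (edgeR adjusted p = 0.304). *Egr2*, a transcription factor of the anergy response, had 4.34, 8.33 and 0 CPM in C1 and 13.1, 35.8 and 14.7 in C5 (edgeR adjusted p = 0.695). For *Dgka* and *Egr2* the groups did not overlap, while for *Cblb* they did. The adenosine list, which also holds *Nt5e*, had 0 of 13 tested members past both thresholds by edgeR and a median of -0.03. At an unadjusted p under 0.05, 3 members were higher (4.26% of all genes tested), and 3 were called by DESeq2. *Slc29a1*, an equilibrative nucleoside transporter, had 11.5, 22.2 and 15.9 CPM in C1 and 85.4, 107.6 and 41.0 in C5, and the receptor genes *Adora1*, *Adora2b* and *Adora3* were too low to test.

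Adhesion, migration and memory genes had 6 calls among 36 tested, all higher (0.168% of all genes tested). *Itgb1* (integrin beta 1, part of the VLA receptors for matrix and VCAM-1; chromosome 8 from 129411876 to 129460618) had 114, 105 and 162 CPM in C1 and 1266, 632 and 1351 in C5. Naive had 38.5 to 56.9, below every C1 sample, and the log2 fold change was 3.04 (SE 0.20, edgeR adjusted p = 0.0268). *Cxcr3* (the receptor for interferon-induced chemokines; chromosome X from 100775141 to 100777875) had 110.5, 60.4 and 86.7 CPM in C1 and 463, 315 and 378 in C5, a log2 fold change of 2.19 (SE 0.15, edgeR adjusted p = 0.0274). *Capg*, an actin-capping protein gene, had 24.9, 24.4 and 6.75 CPM in C1 and 338, 188 and 76.7 in C5, lowest in mouse 3 in both subsets. Its log2 fold change was 3.41 (SE 0.24, edgeR adjusted p = 0.0334).

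*Cd44*, the hyaluronan receptor that marks antigen-experienced T cells, had 41.7, 50.0 and 54.6 CPM in C1 and 302, 181 and 320 in C5, with Naive at a mean of 50.8 (log2 fold change 2.42, edgeR adjusted p = 0.0894). The calcium-binding protein gene *S100a6* had 81.9, 15.4 and 56.0 in C1 and 428, 129 and 200 in C5, so that mouse 2 was lowest in both subsets, and every C1 sample lay above the 9.71 to 12.3 of Naive (log2 fold change 2.43, edgeR adjusted p = 0.0894). *Ahnak*, a large scaffold protein gene, had 157, 114 and 168 in C1 and 562, 311 and 379 in C5 (log2 fold change 1.49, edgeR adjusted p = 0.0951). Among the 36, 18 had all C5 samples above all C1 samples (6.95% of all genes tested) and 2, *Itgae* and *Ly6c2*, had all below, near the 6.67% of all genes tested. *Itgae* (CD103) had 71.2, 70.0 and 113 CPM in C1 and 21.96, 35.7 and 31.5 in C5 (edgeR adjusted p = 0.232) and *Ly6c2* had 992, 442 and 470 in C1 and 310, 273 and 173 in C5 (edgeR adjusted p = 0.172). The list is not one direction throughout, and its median log2 fold change was 0.96.

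Secreted and effector genes differed among themselves. *Spp1* (osteopontin, a secreted phosphoprotein; chromosome 5 from 104582165 to 104589235) had 0.0603, 0 and 0 CPM in C1 and 195, 114 and 87.7 in C5. The 2 reads of C1 against 15994 of C5 give a ratio of 6781 (exact 95% interval 1877 to 56000, counting error only), and Naive had 0.0332 to 0.0824 CPM. *Spp1* shares exon bases with the predicted gene *Gm42793* on the same strand. *Ifng* (interferon gamma; chromosome 10 from 118276951 to 118281797) had 26.2, 10.1 and 11.2 CPM in C1 and 155, 48.1 and 60.9 in C5, highest in mouse 1 in both subsets, with a log2 fold change of 2.42 (SE 0.26, edgeR adjusted p = 0.0894). *Cxcl10*, a chemokine that binds the CXCR3 receptor, had 1 read in all of C1 and 38.2, 19.9 and 36.05 CPM in C5 (log2 fold change 11.09, SE 1.21, edgeR adjusted p = 0.0894). Counting alone gives it a ratio of 3103 with an exact 95% interval of 557 to 122600, Naive ran from 0 to 8.84 CPM, and it shares exon bases with *Art3* on the other strand.

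In the effector list, 24 of 27 members were tested, 2 rose (0.168% of all genes tested), *Ifng* and *Nkg7*, and none fell. *Nkg7*, a cytotoxic granule protein gene, had 1481, 806.5 and 915 CPM in C1 and 2468, 1718 and 1817 in C5, with a log2 fold change of 0.94 (SE 0.10, edgeR adjusted p = 0.0894) that lay just above the minimum of 0.9. *Gzmb* (granzyme B) had 34.3, 4.84 and 9.45 CPM in C1 and 144, 0 and 12.3 in C5, and *Gzma* was highest in mouse 1 in both subsets. *Prf1* (perforin) had 110, 95.6 and 69.8 in C1 and 49.1, 58.0 and 52.9 in C5, all C5 samples being below all C1 samples without passing the test (edgeR adjusted p = 0.533). *Cst7* (cystatin F, an inhibitor of granule proteases) was outside the list and had 171, 173 and 157 in C1 and 378, 359 and 360 in C5. *Il21*, a cytokine of helper T cells, had no read in C1 and 2.12, 37.2 and 3.70 CPM in C5, at least 459-fold higher against the floor of 3 counts over the group, but did not pass (edgeR adjusted p = 0.318).

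Transcription factors of antigen response and exhaustion were mostly above 0 in log2 fold change, 30 of 32 (49.2% of all genes tested), with a median of 1.32. Of the 32 members, 19 were without overlap upward (6.95% of all genes tested), but 1 passed both thresholds, higher (0.168% of all genes tested). This was *Id2*, an inhibitor of E proteins in effector cells, with 257, 247 and 252 CPM in C1 and 516, 467 and 565 in C5 (log2 fold change 1.03, SE 0.12, edgeR adjusted p = 0.0951). *Tox*, a factor that sustains exhausted cells, had 93.4, 59.9 and 74.9 CPM in C1 and 188, 241 and 329 in C5, and *Nfatc1* had 117, 115 and 158 in C1 and 242, 247 and 266 in C5. Neither overlapped and neither passed (edgeR adjusted p = 0.163 for each). *Bhlhe40*, a stress and cytokine regulator, had 22.3, 31.99 and 4.97 CPM in C1, 380, 182 and 155 in C5 and a mean of 0.132 in Naive. *Tox2* was at 0 in C1 and had 6.30, 14.4 and 16.2 in C5, at least 394-fold higher against a floor of 3 counts over the group. *Egr1*, by contrast, had 48.9, 33.5 and 39.3 in C1 and 40.15, 38.5 and 41.7 in C5, and *Eomes* overlapped between the groups.

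Called genes outside the lists had mixed roles. *Tbc1d4* (AS160, a GTPase-activating protein that governs glucose transporter traffic; chromosome 14 from 101679135 to 101846739) had 5.06, 7.95 and 11.98 CPM in C1 and 262, 187 and 305 in C5, with Naive between 2.65 and 29.2. Its log2 fold change was 4.97 (SE 0.32, edgeR adjusted p = 0.0268). *Ptpn11* (SHP-2, a phosphatase that PD-1 recruits; chromosome 5 from 121268596 to 121329496) had 38.3, 39.1 and 24.6 in C1 and 171, 204 and 160 in C5, a log2 fold change of 2.42 (SE 0.21, edgeR adjusted p = 0.0740). The related *Ptpn6* (SHP-1) had 391.9, 339 and 242.5 in C1 and 431, 346 and 284 in C5, groups that overlapped. *Zbtb32*, a repressor of proliferation in lymphocytes, had 17.0, 26.3 and 14.7 in C1 and 246.5, 157 and 99.8 in C5. *Wls*, which carries Wnt proteins to the surface, had 34.9, 25.96 and 32.15 in C1 and 135, 99.4 and 152 in C5, and *Eea1*, an early endosome protein gene, had 20.8, 17.7 and 20.5 in C1 and 95.5, 83.9 and 104 in C5. *Pkhd1l1* had 0, 0.209 and 0.373 in C1 and 16.7, 45.1 and 74.9 in C5. The lncRNA genes *2310001H17Rik* and *AU020206* rose by 2.69 and 1.71 on the log2 scale, and *1700019D03Rik* had under 0.2 CPM in each C1 sample and 24.2 to 76.8 in C5. These last 3 share exon bases with genes on the other strand, and part of their reads is uncertain because the strand setting of the counting was not stated. *Nrp1*, *Capg*, *Cd44*, *Zbtb32*, *Ifng*, *Id2* and *Satb1* likewise share exon bases with predicted genes, so part of their reads is uncertain as well.

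Most naive and quiescence genes lay on the other side of 0. *Satb1* (a chromatin organizer of T cell development; chromosome 17 from 52043114 to 52140622) had 763, 668 and 658 in C1 and 145, 266 and 174 in C5, a log2 fold change of -1.88 (SE 0.22, edgeR adjusted p = 0.0954). C5 was far below C1 in each mouse, and the fall was smallest in mouse 2. All 30 members were tested, 2 fell (0.0268% of all genes tested) and none rose. In log2 fold change 27 were below 0 (50.8% of all genes tested), 12 had all C5 samples below all C1 samples (background 6.67%) and the median was -0.58. At an unadjusted p under 0.05 by edgeR, 19 were lower and 1 higher (3.50% and 4.26% of all genes tested). *Lef1* had 394.5, 451 and 524 CPM in C1 and 113, 304 and 231 in C5 and *Ccr9*, a gut-homing receptor gene, had 103, 160 and 88.25 in C1 and 23.2, 48.3 and 54.3 in C5, without overlap and without passing (edgeR adjusted p = 0.271 and 0.304). *Tcf7* (TCF1) overlapped, with 689, 786.5 and 874 in C1 and 460, 642 and 751 in C5. *Btg1*, a quiescence gene, had a log2 fold change of -0.01.

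Other lower genes were not list members. *Rras2*, a small GTPase gene, had 113, 113 and 102 CPM in C1, 27.6, 29.0 and 18.4 in C5 and a mean of 112 in Naive. *Pdk1*, a kinase that inhibits pyruvate dehydrogenase, had 165, 267 and 239 in C1, 64.3, 75.45 and 81.6 in C5 and a mean of 182 in Naive. Their log2 fold changes were -2.15 (SE 0.24) and -1.57 (SE 0.18), with edgeR adjusted p = 0.0894 for each.

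Of the remaining lists, follicular-helper-like genes had the highest median, 2.16 over 16 tested members of 20. *Izumo1r* was the 1 member past both thresholds, higher (0.168% of all genes tested). Without overlap upward were 12 members (6.95% of all genes tested), among them *Icos*, a costimulatory receptor gene with 96.5, 80.2 and 42.9 CPM in C1 and 274, 255 and 251 in C5 (edgeR adjusted p = 0.131). *Bcl6*, the master factor of that cell type, overlapped with 3.225, 8.68 and 7.93 in C1 and 6.30, 27.8 and 59.5 in C5. Costimulatory and TNF receptor genes had 0 of 20 past both thresholds by edgeR and a median of 0.99. At an unadjusted p under 0.05, 11 were higher and 1 lower (4.26% and 3.5% of all genes tested), and DESeq2 called 10 higher. *Tnfrsf4* (OX40) had 1.27, 6.55 and 7.53 CPM in C1 and 86.7, 70.2 and 33.8 in C5, and *Tnfsf11* (RANKL) 0.0603, 0 and 1.26 in C1 and 39.0, 24.5 and 26.9 in C5. For the markers of the study's 2 flow panels, chosen in the same mouse model, 20 of 21 genes were tested. Of these, 4 rose and 2 fell (0.168% and 0.0268% of all genes tested). Their median was 1.59. The paper based the later panel on its RNA-seq results, which are these same data. The paper first described C5 with the earlier panel, by raised levels of several coinhibitory proteins, and then designed the sort for it. LAG-3, TIGIT, CTLA-4, FR4 and CD44 were on that panel. The direction of this list is therefore not independent evidence, and it holds the gate marker genes *Pdcd1* and *Nt5e*.

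Chemokine receptor and homing genes had 1 call in each direction among 18 tested, *Cxcr3* being the higher one, and a median of 0.04. Over all genes tested, 0.168% were called higher and 0.0268% lower. The 41 cytokine receptor and signalling genes had a median of -0.07. *Il2ra* (CD25) held 2 reads in all of C1 and 20.7, 13.1 and 5.93 CPM in C5, while *Il7r* (CD127) had 686.5, 764 and 803 in C1 and 552, 560 and 667 in C5. Neither overlapped between the groups and neither passed. The median was 0.23 for 30 cell cycle genes, 0.05 for 26 interferon-stimulated genes, 0.27 for 16 glycolysis genes, 0.12 for 15 T cell identity genes and 0.55 for 19 DUSP, RGS and other feedback genes. *Mki67* (Ki-67, present in cycling cells) overlapped with 5.49, 7.14 and 30.02 in C1 and 28.5, 14.7 and 53.9 in C5. *Spry1*, an inhibitor of ERK signalling, had 10.2, 4.74 and 7.30 in C1 and 64.7, 42.5 and 48.0 in C5, without overlap (edgeR adjusted p = 0.128).

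In these last 6 lists edgeR placed 0 genes past both thresholds. At an unadjusted p under 0.05 it had 3 cytokine receptor, 3 cell cycle, 2 interferon-stimulated, 2 glycolysis, 6 T cell identity and 7 feedback genes higher, and 4, 0, 1, 0, 0 and 1 lower. Over all genes tested the shares were 4.26% and 3.50%, so that 3 of 41 cytokine receptor and 2 of 26 interferon-stimulated genes lay near the background. DESeq2 called 3, 4, 2, 0, 0 and 5 higher and 1, 0, 0, 0, 0 and 1 lower, where it called 682 and 385 of the 14914.

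**Figure D3:**
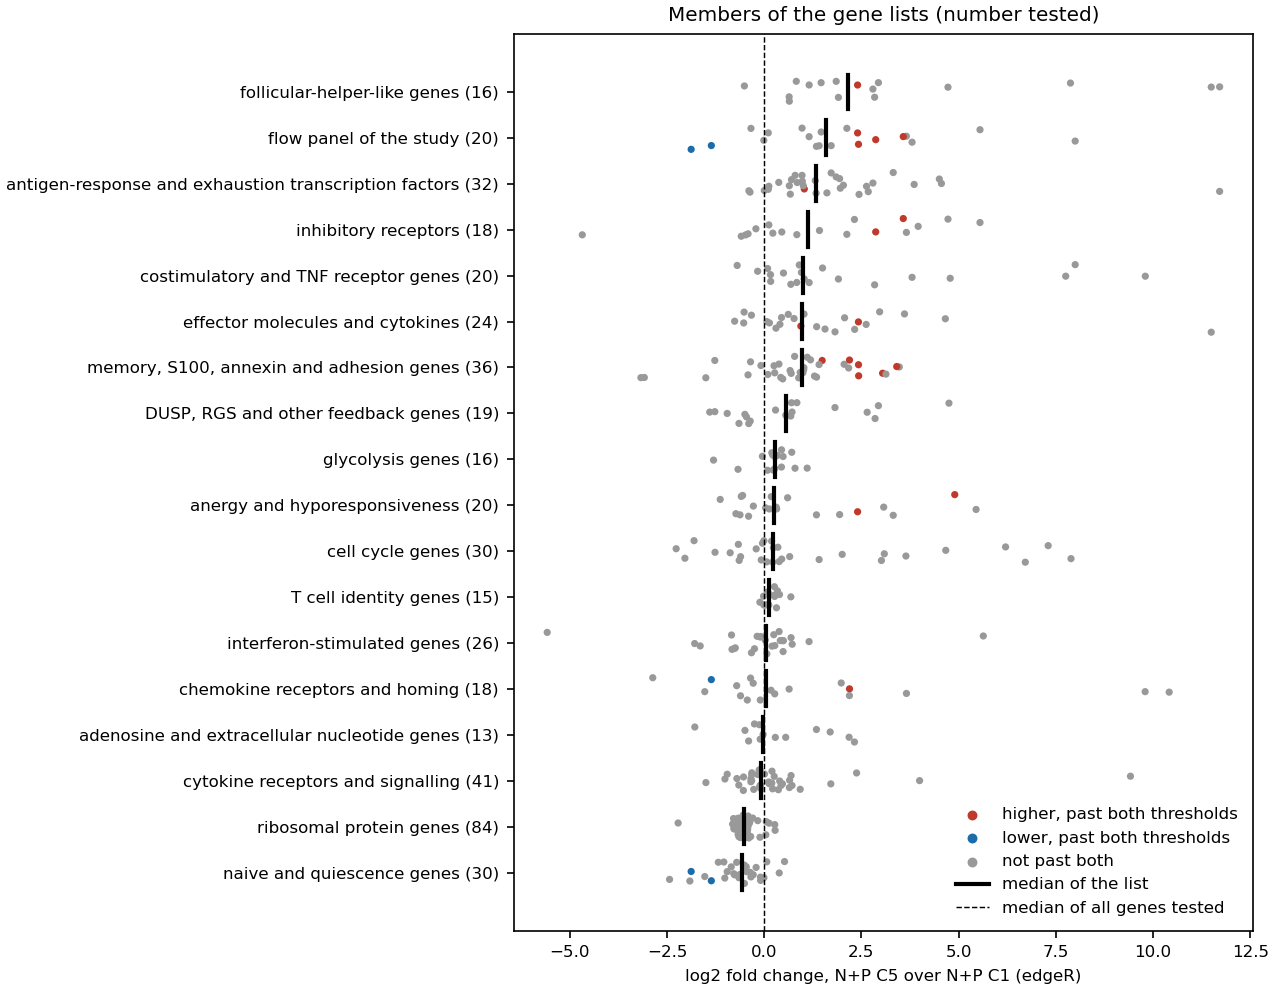
Log2 fold changes of N+P C5 over N+P C1 for the tested members of 18 gene lists, with the median of each list as a black bar and that of all genes tested (-0.0155) as a dashed line. Follicular-helper-like genes lie farthest right with a median of 2.16, and naive and quiescence genes lie farthest left with -0.58.

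Ribosomal protein genes were mostly lower in C5 by a small amount. Of the 84 tested of 87 members, 79 had a log2 fold change below 0 (50.8% of all genes tested), with a median of -0.52, and 37 had all C5 samples below all C1 samples (6.67% of all genes tested). At an unadjusted p under 0.05 by edgeR, 75 were lower and 0 higher (3.50% and 4.26% of all genes tested). None passed both thresholds, and 5 had an adjusted p under 0.1, *Rps24*, *Rpl32*, *Rplp1*, *Rps20* and *Rplp0*, where 0.0671% of all genes were lower at that adjusted p. For *Rplp1*, *Rps20* and *Rplp0* the groups overlapped, although C5 was below C1 in each mouse. *Rps24* had 2046, 2437 and 1912 CPM in C1 and 1219, 1324 and 1155 in C5, with a log2 fold change of -0.78 (SE 0.08, edgeR adjusted p = 0.0894). The translation elongation factor gene *Eef1a1* was lower as well, at 9586 ± 3112 CPM (SD, n = 3) in C1 and 6666 ± 2191 in C5, with groups that overlapped.

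The sum over the 87 genes was 123400, 110800 and 86630 CPM in C1 of mice 1 to 3 and 82190, 77840 and 62450 in C5. C5 lay below C1 in every mouse and C1 of mouse 3 was close to C5 of mouse 1, and Naive had 140900, 119300 and 124700. The median log2 ratio within a mouse was -0.58, -0.56 and -0.44, against 0 over all genes in each. Under other scalings the median stayed below 0, at -0.51 with RLE factors and -0.43 with library size alone, where the median of all genes moved to 0.07. Without technical library B of mouse 3 it was -0.51. The number with an adjusted p under 0.1 was 0 with library size alone, without a block and with any 1 of the 3 mice left out, 34 with limma-voom and 73 with DESeq2. Many of these genes have processed pseudogenes, and reads that mapped to several places had been removed before counting, so levels of single members are uncertain.

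**Figure D4:**
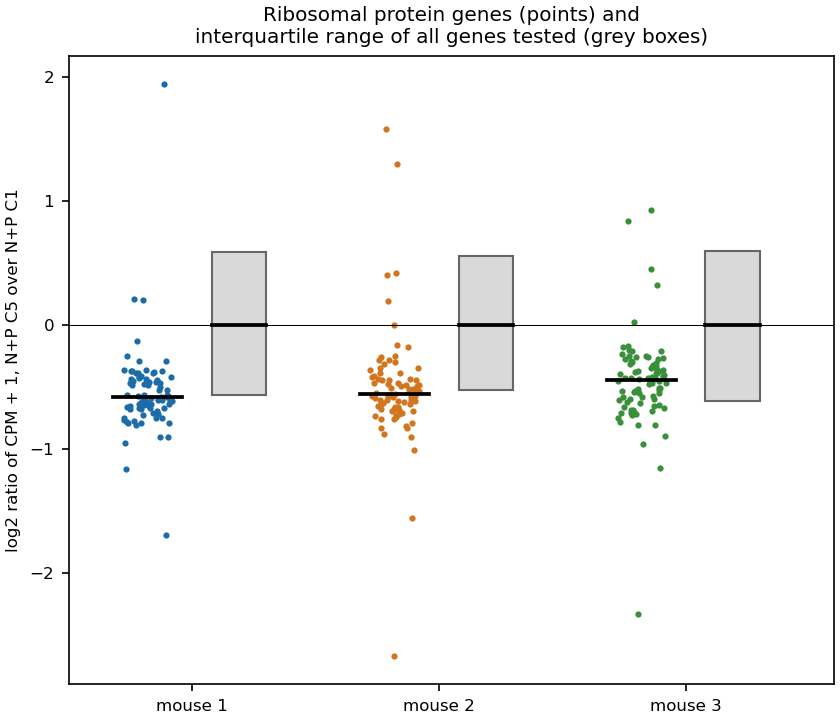
Log2 ratio of CPM + 1 in N+P C5 over N+P C1 for 84 ribosomal protein genes (points, with the median as a bar) in each mouse, beside the interquartile range of the ratios of all 14914 genes (grey boxes). The ribosomal medians are -0.58, -0.56 and -0.44, near the lower edge of the grey boxes.

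Whether the contrast differs in mice sensitized before pregnancy was tested against S+P C5 and S+P C4, also PD1+CD73+ and PD1- TFGS, in 6 mice. In 1 fit of both, with 9 mice as blocks, edgeR placed 0 of 16180 genes past both thresholds for the difference between effects and 267 (1.65%) at an unadjusted p under 0.05, while DESeq2 called 149. S+P C4 replicates 2 and 3 had a single library each, with 8002 and 7436 detected genes. Mitochondrial genes took 7.78% and 24.3% of their counts, against a median of 3.16% over the libraries of the series. With them the median difference over all genes was -0.64. Without these 2 mice it was -0.11, no gene passed and 859 were under 0.05 unadjusted. In the joint fit of all 9 mice, which shares 1 estimate of spread, 0 genes passed for N+P alone either (293 at an unadjusted p under 0.05). For S+P alone, with all 6 mice, 7 genes passed both thresholds and 865 were under 0.05 unadjusted.

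Among the 29 genes the difference had its lowest unadjusted p in *Capg*, *Ahnak*, *Nkg7*, *Id2*, *S100a6*, *Cd44* and *Itgb1*, a description, since these genes were chosen for their size in N+P. For *Capg* the log2 fold change was 3.41 (SE 0.64) in N+P and -0.56 (SE 0.42) in S+P, and for *Ahnak* 1.496 (SE 0.43) and -0.98 (SE 0.31). *Id2* had 1.04 in N+P and -0.57 in S+P, with 252 CPM on average in N+P C1 and 966.5 in S+P C4. The difference for *Capg* was 3.98 (unadjusted p = 0.000225, edgeR adjusted p = 1) and without S+P replicates 2 and 3 it was 3.94 (edgeR adjusted p = 0.107). *Izumo1r*, *Ptpn11*, *Tigit* and *Eea1* had differences of -0.11 (SE 1.33), -0.03 (SE 1.48), 0.27 (SE 1.31) and -0.04 (SE 1.74) with all S+P mice. Without S+P replicates 2 and 3 these were -0.27 (SE 0.42), 0.30 (SE 0.73), 0.64 (SE 0.37) and 0.65 (SE 0.55), and none passed in either fit. *Lag3* had 3.58 and 2.25, and *Pdcd1* 3.67 and 2.72. Of the 84 ribosomal protein genes, the median was -0.51 in N+P and -0.17 in S+P, where the median over all genes was 0 and 0.68, and 0 passed for the difference. Relative to all genes, the direction of that difference depended on S+P replicates 2 and 3. With them the ribosomal median of the difference was -0.36 against -0.64 over all genes, and 4 of the 84 were lower at an unadjusted p under 0.05. Without them it was -0.55 against -0.11, with 54 lower at an unadjusted p under 0.05 and 0 at an edgeR adjusted p under 0.1.

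**Figure D5:**
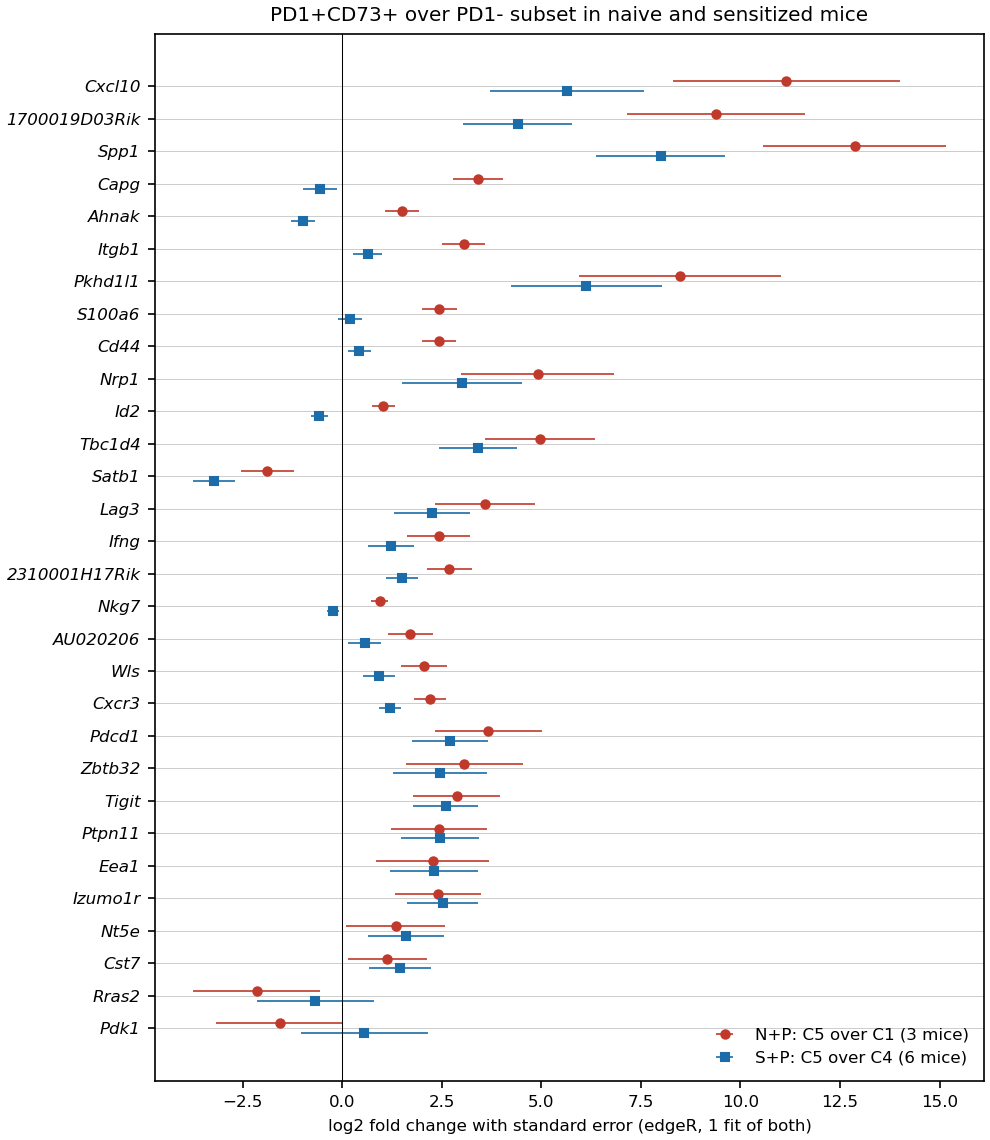
Log2 fold changes with standard errors of called genes, *Pdcd1* and *Nt5e*, for C5 over C1 in N+P (red circles, 3 mice) and for C5 over C4 in S+P (blue squares, 6 mice), ordered by the difference. *Cxcl10*, *1700019D03Rik* and *Spp1* have the largest positive differences with wide errors. The effects of *Capg*, *Ahnak*, *Id2*, *Nkg7* and *Pdk1* lie on opposite sides of 0, with wide errors for *Pdk1*.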

How the data were processed

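RNA-Seq libraries were amplified by SmartSeq2 from 200 sorted TFGS and sequenced in 1 run. Before deposit, reads were trimmed (cutadapt 3.4) and aligned to GRCm39 (STAR 2.6.1b), those mapped to several places were removed, and the authors deposited raw counts per gene from featureCounts 2.0.1, without normalization, for 55359 genes. The strand setting and annotation release are not given in the sources used here, nor is which of the study's experiments each mouse belongs to. Symbols and positions come from GENCODE M39 (54749 genes matched). Counts carry no molecular identifiers, so bounds (floor of 3 counts) and 95% exact (Clopper-Pearson) intervals cover counting error only.

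Groups follow the labels. Technical libraries were summed per mouse and subset. A library deposited identically under Naive replicate 1 and S+P C4 replicate 1 was left out of both. C1 and C5 with 1 number were sorted from 1 mouse. Their deviations from the group means correlated at 0.0885, 0.0218 and 0.0729 over 14914 genes, against -0.0707 to -0.00797 between numbers. Deviations within a subset sum to 0, so positive values for the same number push those between numbers below 0. The contrast is therefore not a test of the pairing. edgeR 4.0.16 was used (TMM factors, genes kept by filterByExpr at 10 counts, quasi-likelihood test with the robust option, mouse as block, two-sided). A call needed a Benjamini-Hochberg adjusted p under 0.1 together with a log2 fold change beyond 0.9. Standard errors are the fold change over the square root of F. The 2 comparisons are those between C5 and C1 and between effects in N+P and S+P mice. CPM share 1 TMM scale over 30 samples. A library of replicate 1 and that of replicate 2 of S+P C7 (PD1+CD73- TFGS) were nearly identical (r = 0.9996). These 2 samples entered that scale as their average. DESeq2 1.42.0 and limma 3.58.1 (R 4.3.3) were alternatives, as were other scalings, filters, blocks and left-out mice, and Python 3.11.15 with pandas 2.3.3, numpy 2.4.6 and matplotlib 3.10.9 made the tables and plots.

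The edgeR and DESeq2 fits were also run on simulated data. Drawn with a smooth trend of spread, edgeR made no call when no gene was changed and a few on unchanged genes when others were. Drawn with each gene's own estimated spread, it called some unchanged genes at this sample size, fewer than were called in the real comparison when no simulated gene was changed and more when some were. The smooth trend was tried after that outcome had been seen. DESeq2 called many unchanged genes in both. No difference between mice was simulated.

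Named were up to 15 called genes per direction, by adjusted p, that moved the same way in all 3 mice without overlap, members of the gene lists, *Pdcd1* and *Nt5e*. *Zbtb32*, *Eea1*, *Cxcl10*, *Cst7* and *Eef1a1* were named after their values were seen. The comparison, lists and motifs were chosen with earlier results of these data known. Some genes of these lists and calls are not reported here.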

Additional observations from a re-analysis of the deposited data

How the results depend on the processing

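The 25 higher and 4 lower genes depended on the fit. Counts within 1.5 times came from RLE factors (23 and 3), without rRNA genes (25 and 4) and limma-voom (36 and 5). Library size alone and no filter gave 22 higher and 1 lower each. A mean of at least 10 CPM gave 122 and 31, and technical libraries as separate samples 122 and 29. DESeq2 gave 682 and 385 with the block and 275 and 100 without it. On pairing, edgeR with no replicate block gave 44 and 7, of which 19 and 4 were among the 25 and 4. All 7 groups in 1 fit gave 1 and 0 with no block, where S+P C7 replicates 1 and 2 were averaged. With the block, where both were left out, the fit gave 2 and 0. Technical library A alone gave 0 and 0, and B alone 1 and 0. Leaving out each mouse in turn gave 0 to 0 higher and 0 to 0 lower, with 427 to 497 higher and 324 to 348 lower at an unadjusted p under 0.05 by edgeR, and leaving out library B of mouse 3 gave 2 and 0. An adjusted p under 0.05 left 7 and 0, and no minimum fold 25 and 10. For the difference between N+P and S+P effects DESeq2 gave 149 and every other setting run gave 0. None of the 29 genes, *Pdcd1* or *Nt5e* changed direction under the 18 alternatives run for each. *Pdcd1* passed in 4 and *Nt5e* in 3 of them. The cause of these differences was not tested. With 3 mice the test had 2 residual degrees of freedom. On simulated counts with each gene's own estimated spread, edgeR also called unchanged genes, so some of the 29 calls can be false.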
